A study of Mus musculus with 2 samples.

Results

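The genes described here encode the proteins of the cytoplasmic ribosome. They were taken from the gene symbols of 2 single-cell RNA sequencing libraries: every symbol of the form Rpl or Rps with a number, Rplp0, Rplp1, Rplp2 and Rpsa, leaving out pseudogene symbols and the Rps6 kinases. This gave 82 of the 32286 measured features, of which 47 belong to the large subunit, 32 to the small subunit and 3 to the ribosomal stalk. The rule reads symbols alone. The symbol Rps3a1, the fusion gene Fau, Rack1 and the paralogues Rpl22l1 and Rpl7l1 also encode ribosomal proteins but do not match the form, and are given separately.

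Both libraries were made from mouse cells of the ICR strain as labelled. The first was from embryonic stem cells (ESCs) grown in serum/LIF medium on feeder cells. The other was from epiblast-like cells (48h-EpiLCs) after 48 h in N2B27 medium with activin A, bFGF and 1% KSR on Matrigel. In each, equal numbers of WT and Cnot8 KO cells had been mixed, the WT cells expressing tdTomato from the ROSA mT/mG allele. Cnot8 belongs to the Ccr4-Not complex, where it removes poly(A) tails from mRNAs. The genotype label of both libraries reads wild type although their titles name WT and KO cells. The KO line grew out of blastocysts of Cnot8 heterozygous parents, carries a deletion made by Cas9 in an early exon, and was propagated from a picked colony. The study compared the lines at both stages to follow the exit from naïve pluripotency.

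A cell was counted as WT with at least 1 tdTomato UMI (unique molecular identifier, 1 captured transcript) and no UMI of the Y-linked genes Ddx3y, Eif2s3y, Kdm5d and Uty, and as KO with no tdTomato and at least 2 UMIs of those genes. This gave 435 WT and 2978 KO cells among 11054 kept ESCs, and 368 WT and 2977 KO cells among 9400 kept 48h-EpiLCs, while 7641 and 6055 kept cells met neither definition. Y-linked transcripts thus separate the lines by construction, so that sex-linked transcription, the reporter, the source of each line and the Cnot8 genotype cannot be told apart. Stage, culture medium and library cannot be told apart either, since each stage was 1 library in its own medium. By the methods of the study, EpiLCs were formed from ESCs in 2i/LIF medium. The serum/LIF ESCs are thus not the starting point of a time course to the 48h-EpiLCs. With 1 class of cells per line and stage there were no replicates, no test was possible, and all intervals below (95%) cover counting of molecules or of cells only.

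Cnot8 itself was at 43.1 and 72.1 UMIs per 1000000 UMIs of the class (CPM) in WT and KO ESCs and at 49.7 and 62.6 CPM in WT and KO 48h-EpiLCs. It was not lower in the KO cells, but tags from the 3′ end lie outside the deleted bases and do not check the genotype. At least 3 of the 5 pluripotent markers Pou5f1, Sox2, Zfp42, Fgf5 and Dppa5a were detected in 94.3% and 92.8% of WT and KO ESCs and in 78.3% and 87.4% of WT and KO 48h-EpiLCs. Cells with at least 3 of 6 feeder fibroblast markers made up 0.46% of the WT and 1.28% of the KO ESCs and were at 0 in both classes of 48h-EpiLCs. Cells with at least 3 of 7 primitive endoderm markers were 4.37% and 7.32% of WT and KO ESCs, and 0.272% and 1.38% of WT and KO 48h-EpiLCs. Cells with at least 3 of 9 markers of 2-cell-like cells stayed at or under 0.336% in every class. The summed level of the feeder markers was 9.59 CPM in WT and 32.9 CPM in KO ESCs, and that of the endoderm markers 251 and 263 CPM in WT and KO ESCs and 117 and 144 CPM in WT and KO 48h-EpiLCs. The classes held between 6154790 and 59291903 UMIs in all, and the median cell held 13151 UMIs in WT and 13368 in KO ESCs, and 15598 and 17628 in 48h-EpiLCs. The libraries shared 41 cell barcodes.

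The cytoplasmic ribosome joins a small subunit, which binds the mRNA and decodes it, to a large subunit, which forms peptide bonds, and the stalk proteins recruit translation factors to it. Cells make nearly all of these proteins in equal numbers, and pluripotent cells spend much of their transcription on them. Their mRNAs are known as TOP mRNAs, because transcription starts at a C followed by a run of pyrimidines, through which LARP1 and mTOR signalling adjust their translation and stability.

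Stretches of 25 bases around an annotated transcription start are shown for 6 members that recur below. They let a reader see this start signal in members that differed between the lines and in members that did not. Each is from RefSeq on GRCm38.p6 and runs 5′ to 3′ from 5 bases before to the 20th base from the start, and capitals mark a C followed by at least 4 pyrimidines that begins within 5 bases of the start. The coordinates are chr17:33955646-33955670 on the minus strand for Rps18, chr16:33056477-33056501 on the plus strand for Rpl35a, chr5:115559462-115559486 on the plus strand for Rplp0, chr7:118116128-118116152 on the minus strand for Rps15a, chr3:90213629-90213653 on the minus strand for Rps27 and chr9:114982720-114982744 on the minus strand for Rps27rt.
Rps18: ccgctCTCTCTTCCacaggaggcct
Rpl35a: ccttcCTCTTTCCgccatcttggcg
Rplp0: ttcgaggaccgcctggttctcctat
Rps15a: gccatCTTCCCTCgccggtgagtga
Rps27: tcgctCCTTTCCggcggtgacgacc
Rps27rt: ccttgCTTTCCggcggtgacgacct
Such a run, searched on the transcribed strand alone, was found for 29 of the 62 members with a RefSeq window (46.8%). Of the 27025 genes with a window, 21.2% held one. A gene counted as holding a run if any of its windows did. The starts are annotated and were not measured in these cells. A window without a run thus does not show that a member lacks the signal. Rps18 and Rpl35a hold a run and were lower in KO cells, although other RefSeq starts of Rpl35a have none. Rps15a holds a run and was the highest of all members in KO against WT cells. Rplp0 does not hold a run in this window and was lower in KO cells. The median ratio of KO over WT ESCs (log2, explained below) was -0.20 over the 29 members with a run and -0.19 over the 33 without.

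Ribosomal protein mRNAs were a large part of all captured transcripts in every class. Their share per cell had a median of 22.0% (21.8 to 22.3%) in WT ESCs, 19.9% (19.8 to 20.0%) in KO ESCs, 23.7% (23.5 to 23.9%) in WT 48h-EpiLCs and 20.9% (20.82 to 20.97%) in KO 48h-EpiLCs. The middle 90% of cells ran from 18.1 to 25.4% and from 16.6 to 23.6% in WT and KO ESCs, and from 20.6 to 26.2% and from 18.01 to 24.41% in WT and KO 48h-EpiLCs, so single cells of the lines overlapped. The share was thus lower in KO cells in both libraries and higher in 48h-EpiLCs in both lines.

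**Figure D1:**
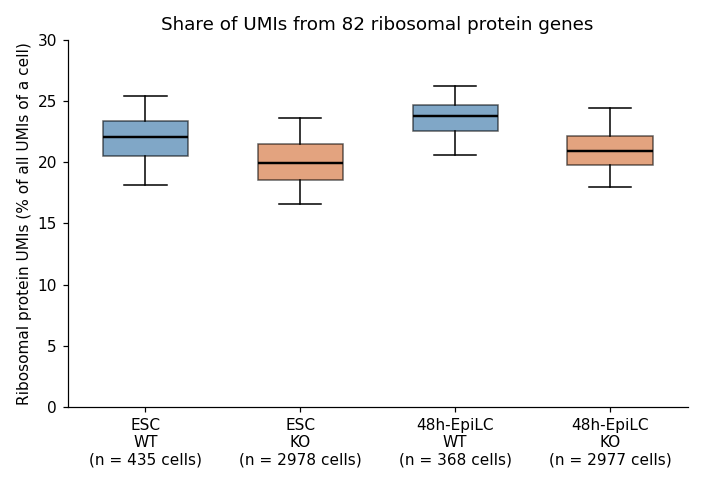
Percent of a cell's UMIs (y axis) that came from the 82 ribosomal protein genes in WT and KO ESCs and 48h-EpiLCs (x axis). Boxes span the quartiles over cells with the median as a line, and whiskers reach the 5th and 95th percentiles. The medians of the KO cells (19.9% and 20.9%) lie under those of the WT cells (22.0% and 23.7%) of the same library.

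The difference of medians, KO minus WT, was -2.09 percentage points (-2.43 to -1.76) in ESCs and -2.85 points (-3.08 to -2.56) in 48h-EpiLCs. Of the KO cells, 17.3% lay above the WT median in the ESC library and 8.73% in the 48h-EpiLC library. From ESCs to 48h-EpiLCs the median was higher by 1.72 points (1.26 to 2.09) in WT cells and by 0.957 points (0.772 to 1.13) in KO cells. With every cell thinned to 5000 UMIs the medians were 22.1% and 19.9% in WT and KO ESCs and 23.7% and 20.9% in WT and KO 48h-EpiLCs, which leaves both orders as they were. KO cells were lower in each quartile of sequencing depth, but the gap was smallest among the deepest cells. There the median shares were 21.7% in WT and 20.7% in KO ESCs, and 23.7% in WT and 21.8% in KO 48h-EpiLCs. Cells with both tdTomato and Y-linked UMIs were deep as well and had median shares of 21.8% in the ESC and 23.5% in the 48h-EpiLC library.

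Among the 100 most abundant genes, between 62 and 67 were members, depending on the class. Because each transcript is captured once at its 3′ end, CPM needs no scaling by transcript length. Members with the highest mean CPM included Rps29 and Rpsa of the small subunit and Rpl13 and Rpl6 of the large subunit. Rps29, a small zinc-binding protein, was at 6272 and 6282 CPM in WT and KO ESCs but at 5001 and 5088 CPM in WT and KO 48h-EpiLCs. Rpsa, the laminin receptor protein of the small subunit, was at 5460 CPM in WT ESCs and 4271 in KO ESCs, against 5436 in WT and 4772 in KO 48h-EpiLCs. Rpl13 ranged from 5282 to 5990 CPM and Rpl6 from 4539 to 5148 CPM over the 4 classes. At the other end, Rpl3l, the muscle form of Rpl3, stayed at or under 3.09 CPM and was left out of every comparison. All other members but the paralogues Rpl10l, Rpl39l and Rps27rt reached at least 292 CPM in every class. Large subunit members gave 52.1 to 52.6% and small subunit members 42.4 to 43.0% of ribosomal protein UMIs in the 4 classes, while the 3 stalk members gave 5.34% and 4.93% in WT and KO ESCs and 4.83% and 4.50% in WT and KO 48h-EpiLCs.

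Gene by gene, lines and stages were compared with the log2 ratio of CPM + 1, centred by subtracting the median over all genes with a mean of at least 5 CPM in the 2 classes compared. Past the fold means a centred log2 ratio beyond 0.25 in size, and 81 members could be compared each time. Shares of all genes include scarce genes, whose ratios pass the fold by counting alone more often than those of abundant members. No background of like abundance was computed for these shares. In ESCs, 31 members were lower in KO cells past the fold and 1 was higher, where 24.8% of all 9277 genes were lower and 25.3% higher. In 48h-EpiLCs, 20 members were lower and none was higher, where 20.5% of all 9385 genes were lower and 20.9% higher. Of the members compared, 38.3% were thus lower in ESCs and 24.7% in 48h-EpiLCs, and hardly any lay on the other side. These counts depend on the processing. They were 14 and 11 with a WT definition that needs no tdTomato, in cells of at least 20000 UMIs. In cells of 10000 to 20000 UMIs they were 33 and 38. The share of all genes past the fold was not computed for these cells, so these counts have no background. By sign alone, 73 of 81 members in ESCs and 78 of 81 in 48h-EpiLCs lay under the median gene. The members' median was -0.20 (-0.25 to -0.16) in ESCs and -0.15 (-0.18 to -0.13) in 48h-EpiLCs, against 0 for all genes by construction. Without centring, 14 members (17.3%) were lower and 2 higher in ESCs, where 16% of all genes were lower and 36.3% higher, and 12 (14.8%) were lower and none higher in 48h-EpiLCs, where 15.4% were lower and 28.1% higher. On that scale the share of members that were lower was close to the background in both libraries. The median gene itself was higher in KO cells by 0.12 and 0.07. The subunits were alike, with medians of -0.20 and -0.18 for the large and the small subunit in ESCs and of -0.16 and -0.15 in 48h-EpiLCs.

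A few members stood far apart from the rest. A ratio under -0.5 was found for 10 members in ESCs and 9 in 48h-EpiLCs (12.3% and 11.1%), where 10.2% and 7.67% of all genes lay under it. The share of all genes under it in both libraries was not computed, so a count of members under it in both has no background. There were 9 members whose ratio was under -0.5 in both libraries, a set picked after the values were seen and described without a test: Rpl29, Rps18, Rpl26, Rps2, Rpl35a, Rpl10l, Rpl21, Rplp0 and Rpl24. Both libraries put them in the same order apart from the place of Rps2. Just outside lay Rpl39l at -0.55 in ESCs and -0.43 in 48h-EpiLCs, Rps28 at -0.48 and -0.40, and Rpsa at -0.48 and -0.26, and just inside lay Rpl24 at -0.61 and -0.57.

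**Figure D2:**
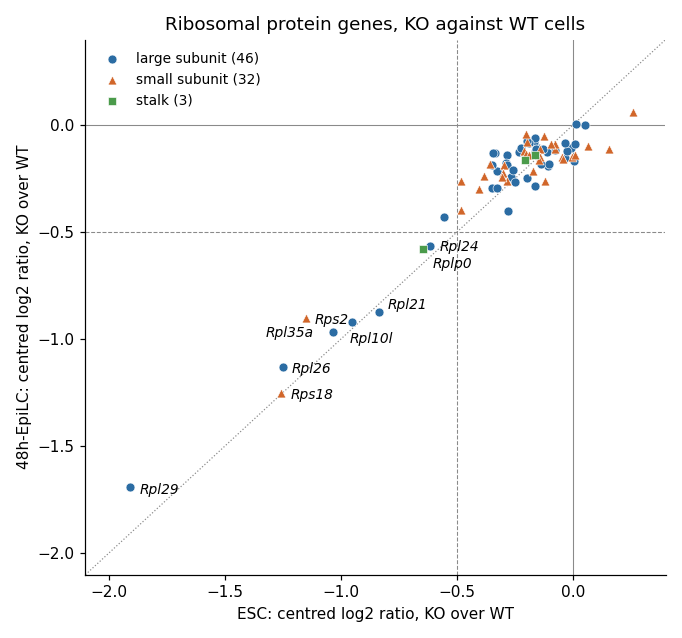
Centred log2 ratio of KO over WT for 81 ribosomal protein genes in ESCs (x axis) and in 48h-EpiLCs (y axis). Each point is a gene, its shape and colour give the subunit, dashed lines mark -0.5 and the dotted line marks equal ratios. Most points lie in a tight group a little under 0 on both axes, and the 9 named genes run down the diagonal to Rpl29 at -1.91 and -1.69.

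Rpl29, a large subunit protein that mice can live without, was at 1006 CPM in WT and 292 CPM in KO ESCs, and at 964 CPM in WT and 313 CPM in KO 48h-EpiLCs. Its centred log2 ratio was -1.91 (-1.96 to -1.87) in ESCs and -1.69 (-1.74 to -1.65) in 48h-EpiLCs, the lowest of all members in both. Rps18, of the small subunit head, was at 2477 and 1130 CPM in WT and KO ESCs and at 3004 and 1326 CPM in WT and KO 48h-EpiLCs. Every WT class was thus more than 2 times as high as its KO class for these genes.

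Rpl26, known for binding p53 mRNA besides its place in the large subunit, was at 2436 and 1116 CPM in WT and KO ESCs and at 2694 and 1296 CPM in WT and KO 48h-EpiLCs. Rps2, at the mRNA entry of the small subunit, was at 3668 and 1802 CPM in WT and KO ESCs and at 3398 and 1915 CPM in WT and KO 48h-EpiLCs. Rpl35a, a large subunit protein mutated in some cases of Diamond-Blackfan anaemia, was at 3282 and 1750 CPM in WT and KO ESCs and at 3531 and 1900 CPM in WT and KO 48h-EpiLCs. These ratios ranged from -1.25 for Rpl26 in ESCs to -0.90 for Rps2 in 48h-EpiLCs.

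Rpl21 of the large subunit was at 1965 and 1200 CPM in WT and KO ESCs and at 2397 and 1376 CPM in WT and KO 48h-EpiLCs. Rplp0, the stalk base that anchors Rplp1 and Rplp2, was at 4682 and 3265 CPM in WT and KO ESCs and at 4912 and 3460 CPM in WT and KO 48h-EpiLCs, with ratios of -0.64 and -0.58. The other stalk proteins were not in the set, and the stalk as a whole had medians of -0.20 and -0.16. Rpl10l, a retrogene copy of Rpl10, was scarce and is described with the paralogues. The 9 genes lie on chromosomes 5, 9, 11, 12, 16 and 17. In the last 300 coding bases they shared 50-base stretches with a median of 10 annotated pseudogenes (1 to 65), and the other 73 members with a median of 8 (0 to 72), so that reads of both groups could have been split with or lost to near copies.

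**Figure D3:**
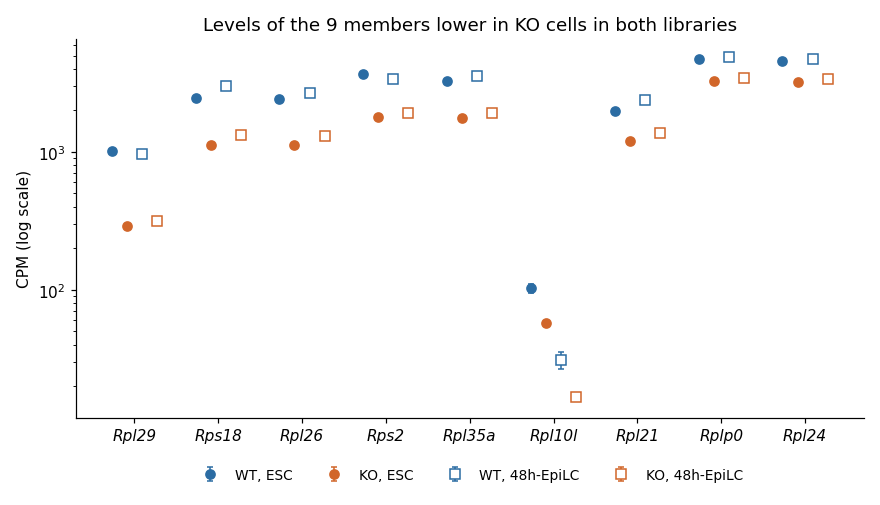
Level in CPM (y axis, log scale) of the 9 members that were lower in KO cells in both libraries, in WT (blue) and KO (orange) ESCs (filled circles) and 48h-EpiLCs (open squares). Bars are exact Poisson 95% intervals and are mostly smaller than the symbols. The KO symbol lies under the WT symbol of the same stage for every gene, and Rpl10l is also lower at 48 h, at 30.9 and 16.7 CPM, than in ESCs, at 102 and 57.3 CPM.

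The 9 genes gave 11.02% of ribosomal protein UMIs in WT ESCs and 6.84% in KO ESCs, and 10.9% and 7.01% in WT and KO 48h-EpiLCs. The pooled difference in ribosomal protein share between the lines was -1.69 points in ESCs and -2.27 points in 48h-EpiLCs. Of this, the 9 genes accounted for -1.03 and -1.07 points, or 61.0% and 47.0%. They were picked for low ratios in these same cells. A large part in them and a smaller remainder thus follow in part from the choice. Without them the other 72 members compared had medians of -0.16 (-0.20 to -0.14) in ESCs and -0.14 (-0.17 to -0.12) in 48h-EpiLCs, with 22 (30.6%) and 11 (15.3%) members lower past the fold, above the background in ESCs and under it in 48h-EpiLCs. By sign, 64 and 69 of the 72 lay under the median gene. The difference of median share per cell was then -0.982 points in ESCs and -1.66 points in 48h-EpiLCs.

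Cell by cell, the share of the 9 genes within ribosomal protein UMIs fell into separate peaks. Its median was 11.1% in WT and 6.49% in KO ESCs and 10.9% in WT and 6.57% in KO 48h-EpiLCs. The genes were picked from these same WT and KO cells, so a lower share in KO cells was fixed by the choice. With cut points placed after the peaks were seen, 97.5% of WT ESCs and 96.7% of WT 48h-EpiLCs lay at 9% or above, while 90.8% of KO ESCs and 88.8% of KO 48h-EpiLCs lay under 8%. Cells that met neither definition, and so had no part in choosing the genes, were found in both peaks: in ESCs 45.9% of them lay under 8% and 49.5% at 9% or above, and in 48h-EpiLCs 35.5% and 60.3%. Cells with both tdTomato and Y-linked UMIs, 82 in the ESC and 84 in the 48h-EpiLC library, lay between the peaks at medians of 9.48% and 9.30% and were deep, with medians of 21409 and 24647 UMIs. In the KO definition, 4.23% of ESCs and 5.01% of 48h-EpiLCs lay at 9% or above.

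**Figure D4:**
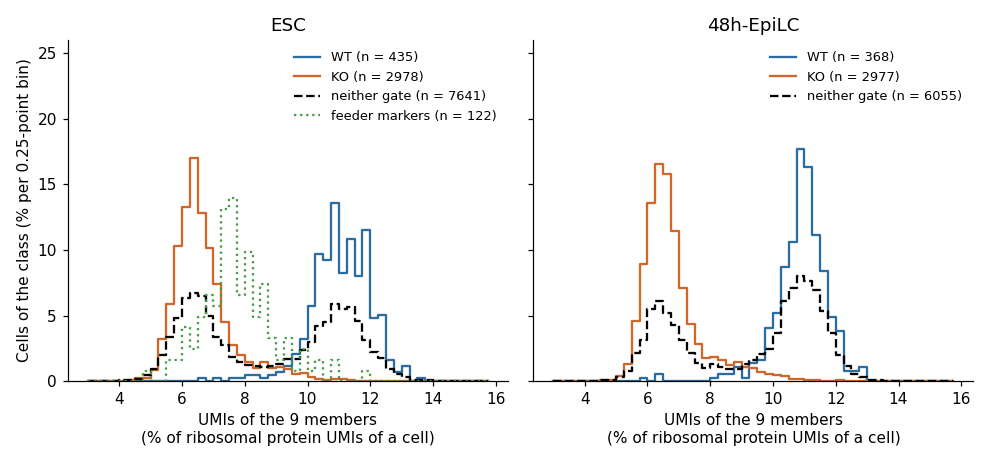
Distribution over cells of the percent of ribosomal protein UMIs that came from the 9 members (x axis), as percent of the cells of a class per bin (y axis), for the ESC library (left) and the 48h-EpiLC library (right). WT cells peak near 11% and KO cells near 6.5%, cells of neither definition show both peaks, and ESC-library cells with feeder markers (dotted) peak between them, nearer to the KO cells.

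The 122 kept cells of the ESC library with at least 3 feeder markers had a median of 7.70%, with 61.5% under 8% and 13.1% at 9% or above. They held 417 CPM of Col1a1 and 29.8 CPM of Pou5f1, against 2.76 and 99.8 CPM in WT ESCs. Rpl29 was at 298 CPM in them, close to the 292 CPM of KO ESCs, and Rps18 at 1260 CPM against 1130 CPM in KO ESCs. Their median was 7.65% in the 65 with and 7.77% in the 57 without a Y-linked UMI. Rplp0 at 4211 CPM, Rps2 at 2467 CPM, Rpl26 at 1477 CPM and Rpl35a at 2096 CPM lay between the KO and the WT ESCs, and Rpl10l at 29.8 CPM lay under both. By the methods of the study the feeder cells were fibroblasts of ICR mice, whereas the background of the mT/mG line beyond the strain label is not given in the sources used here, and its part in the peaks was not tested.

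At the top of the same comparison, few members exceeded the median gene. In ESCs the 5 highest were Rps15a, Rps15, Rps14, Rpl37 and Rpl30, and in 48h-EpiLCs Rps15a, Rpl30, Rpl37, Rps27l and Rps29. Rps15a, a small subunit protein, was at 1826 CPM in WT and 2384 CPM in KO ESCs and at 2080 CPM in WT and 2288 CPM in KO 48h-EpiLCs. Its ratio was 0.26 (0.23 to 0.29) in ESCs and 0.06 (0.04 to 0.09) in 48h-EpiLCs, and it was the only member higher past the fold in ESCs. Rps15, whose C-terminal tail reaches the decoding centre, was at 1622 and 1974 CPM in WT and KO ESCs and at 2332 and 2275 CPM in WT and KO 48h-EpiLCs. The other ratios of these genes lay between -0.10 and 0.07, apart from -0.12 for Rps29 in ESCs, -0.20 for Rps27l in ESCs and 0.16 and -0.11 for Rps15.

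The X-linked members are Rpl10, Rpl39, Rps4x and Rpl36a. Rps4x, whose human counterpart has a copy on the Y chromosome, was at 2578 and 2274 CPM in WT and KO ESCs and at 3126 and 2780 CPM in WT and KO 48h-EpiLCs. Rpl10, which forms part of the peptidyl transferase region, was at 1222 and 1221 CPM in WT and KO ESCs and at 1527 and 1489 CPM in WT and KO 48h-EpiLCs. Rpl39, in the exit tunnel, was at 2624 and 2493 CPM in WT and KO ESCs and at 2152 and 2153 CPM in WT and KO 48h-EpiLCs, and Rpl36a ranged from 989 to 1157 CPM. The median of the X-linked members was -0.18 in ESCs and -0.11 in 48h-EpiLCs, against -0.20 and -0.16 for the autosomal members. Over all X-linked genes it was -0.15 and -0.09, so the X-linked members did not lie apart from either group.

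Between the stages, the members' shifts were small for most and large for a pair of paralogues. In WT cells 19 members were higher in 48h-EpiLCs past the fold and 8 lower, where 29.7% of all 9242 genes were higher and 29.1% lower. In KO cells 18 members were higher and 4 lower, where 26.7% of all 9478 genes were higher and 26.9% lower. In both lines the share of members past the fold was under the background in either direction, and far under it for members that were lower. The background includes genes from 5 CPM up, whose ratios vary more by counting than those of the abundant members. A share under it thus does not show that members were steadier than genes of like abundance. The medians were 0.11 (0.06 to 0.14) in WT and 0.12 (0.09 to 0.18) in KO cells, with 57 and 60 of 81 members above the median gene. Without centring, 20 members were higher and 7 lower in WT cells, where 31.6% of all genes were higher and 27.1% lower, and 14 were higher and 5 lower in KO cells, where 25.2% were higher and 28.5% lower. No member was higher by more than 0.5, where 15.4% of all genes were in WT and 12% in KO cells. These comparisons use the same classes of cells as those between the lines.

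Rpl10l and Rpl39l were lowest in 48h-EpiLCs against ESCs in both lines, followed by Rps28 and Rps29. Rpl10l can replace Rpl10 when the X chromosome is silenced in the male germline, and was at 102, 57.3, 30.9 and 16.7 CPM in WT ESCs, KO ESCs, WT 48h-EpiLCs and KO 48h-EpiLCs. Its centred ratio between the stages was -1.73 (-1.998 to -1.522) in WT and -1.70 (-1.86 to -1.65) in KO cells. Intervals of single ratios were computed without the 1 added to CPM, so for scarce genes the ratio lies off their middle. Rpl39l, the testis-enriched copy of Rpl39, was at 133, 98.8, 68.8 and 53.6 CPM in the same order, with stage ratios of -0.97 and -0.85. Rps28, near the mRNA exit of the small subunit, was at 2632 and 2054 CPM in WT and KO ESCs and at 2059 and 1647 CPM in WT and KO 48h-EpiLCs. All of these were lower at 48 h in both lines. Between the lines Rps29 differed little, with CPM slightly higher in KO cells at both stages and centred ratios of -0.12 and -0.05.

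The highest between the stages were Rps15, Rpl10a, Rpl11 and Rps7 in WT cells, and Rps27rt, Rps27l, Rpl9 and Rpl10a in KO cells. Rps15 had a stage ratio of 0.50 in WT and 0.23 in KO cells. Rpl10a, a large subunit protein known to be substoichiometric in ESC ribosomes, was at 1857 and 1812 CPM in WT and KO ESCs and at 2629 and 2276 CPM in WT and KO 48h-EpiLCs, with ratios of 0.47 and 0.35. Rpl11, which binds MDM2 under nucleolar stress, was at 2257 and 2284 CPM in WT and KO ESCs and at 3087 and 2848 CPM in WT and KO 48h-EpiLCs. Rps7 had ratios of 0.42 and 0.27, and Rpl9 of 0.14 and 0.35. All 50-base stretches at the coding end of Rps27rt also occur in other genes, which leaves its values uncertain.

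The stage ratio differed with the length of the coding sequence. Of the 12 members under 300 nt, among them Rpl41, Rpl39, Rps28, Rps29, Rpl37a and Rps21, 9 lay under the median gene in WT and 8 in KO cells, with medians of -0.28 and -0.12. Rps27l, at 0.21 and 0.37, and Rps27rt, at 0.39 and 0.39, are as short and ran against this. Of the 28 members from 300 up to 450 nt, 9 and 10 lay under the median gene, with medians of 0.06 and 0.04. Of the 19 members from 450 up to 600 nt, 2 and 1 lay under it, with medians of 0.24 and 0.22. The 22 longer members had medians of 0.15 and 0.18. Rpl41, whose protein is the shortest, was at 4117 and 3524 CPM in WT and KO ESCs and at 3447 and 3194 CPM in WT and KO 48h-EpiLCs. Across the 81 members, Spearman's rho with coding length was 0.47 in WT and 0.52 in KO cells, and 0.49 and 0.54 without Rpl10l and Rpl39l. For KO over WT it was -0.18 in ESCs and -0.46 in 48h-EpiLCs. By rank the relation with length was thus about as large between the lines at 48 h and of the other sign. Pearson's correlation with log2 length was weaker there, at -0.16, against 0.36 in WT and 0.35 in KO cells between the stages. Without Rpl10l and Rpl39l it was -0.17 there, against 0.51 in WT and 0.55 in KO cells between the stages. Genes are not independent replicates, and all of these values come from the same pair of libraries.

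**Figure D5:**
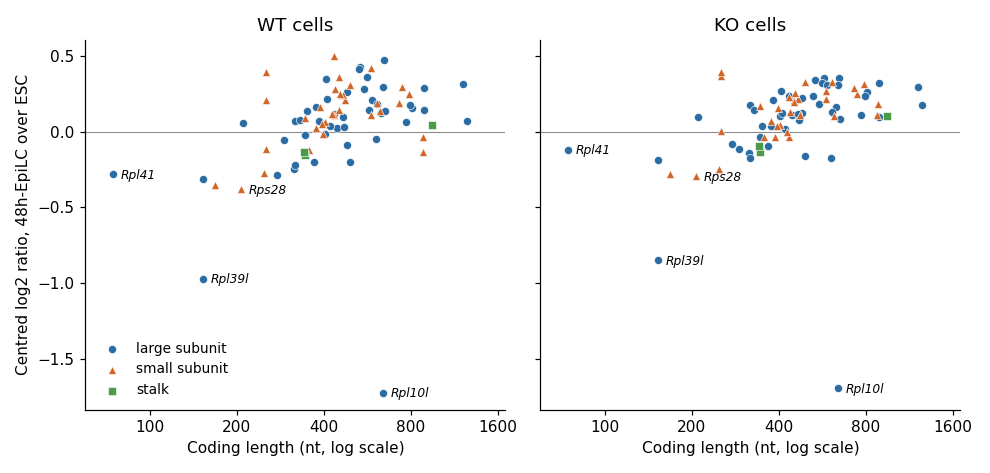
Centred log2 ratio of 48h-EpiLC over ESC (y axis) against coding length in nt (x axis, log scale) for 81 ribosomal protein genes in WT cells (left) and KO cells (right). Each point is a gene. Members under 300 nt lie mostly under 0 in both lines, and Rpl10l (-1.73 and -1.70) and Rpl39l (-0.97 and -0.85) lie under all others.

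Paralogues encode alternative versions of the same ribosomal position, and their share of the pair's UMIs removes the general level. Rpl10l gave 7.73% (7.16 to 8.33%) of Rpl10 and Rpl10l UMIs in WT ESCs, 4.49% (4.32 to 4.66%) in KO ESCs, 1.98% (1.71 to 2.28%) in WT 48h-EpiLCs and 1.11% (1.04 to 1.18%) in KO 48h-EpiLCs. Rpl39l gave 4.84% and 3.81% of its pair in WT and KO ESCs and 3.10% and 2.43% in WT and KO 48h-EpiLCs. Both shares thus had the same order of classes, and neighbouring classes differed beyond their counting intervals.

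Rpl10l was detected in 73.3% of WT ESCs, 49.1% of KO ESCs, 33.4% of WT 48h-EpiLCs and 25.2% of KO 48h-EpiLCs, and in 39.4, 22.4, 14.7 and 8.12% of them at 5000 UMIs per cell. Rpl3l, which these cells are not known to use, was detected in 4.37, 3.93, 2.45 and 5.54% of the same classes, and in 0.922, 1.42, 1.09 and 1.08% at 5000 UMIs. The median depths of the classes are given above. Rpl10l thus lay above the level of Rpl3l in all 4 classes.

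Rps27l, a p53-responsive copy of Rps27, gave 29.3% and 29.2% of its pair in WT and KO ESCs and 34.2% and 34.7% in WT and KO 48h-EpiLCs. Rpl36al, the autosomal copy of X-linked Rpl36a, gave 43.8% in both lines of ESCs and 48.8% and 49.7% in WT and KO 48h-EpiLCs. Both shares thus differed between the stages far more than between the lines. Rpl22l1, which is known to be repressed by Rpl22, gave 30.1% and 34.9% of its pair in WT and KO ESCs and 30.9% and 31.7% in WT and KO 48h-EpiLCs. Rpl7l1 gave 11.9% in WT ESCs, 12.5% in KO ESCs, 7.31% in WT 48h-EpiLCs and 9.39% in KO 48h-EpiLCs. Rps27rt stayed between 2.33% and 3.30% of its pair with Rps27, and Rpl3l at or under 0.126% of its pair with Rpl3.

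Cell-to-cell variation of the members was, in the median, close to that of other genes of like abundance. At 5000 UMIs per cell the Fano factor (variance over mean, 1 for pure counting) had a median of 1.34 in WT and 1.30 in KO ESCs and of 1.18 in WT and 1.24 in KO 48h-EpiLCs, over members with a mean of at least 0.5 UMIs. Among genes with a mean of at least 5 UMIs, the highest member was at 1.80, 1.85, 1.44 and 1.63 in these classes, while between 13 and 19 of the 62 to 66 other nuclear genes of that level were above it. The others reached up to 16.8. All members thus lay under the most variable of these genes, but the medians of both groups were close. They were 1.35 for members against 1.33 for the others in WT ESCs, and 1.30 against 1.34 in KO ESCs. In 48h-EpiLCs they were 1.18 against 1.28 in WT and 1.24 against 1.25 in KO cells.

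The most variable member of KO cells was X-linked Rps4x in both libraries, at 1.85 in ESCs and 1.63 in 48h-EpiLCs, and still so at 1.89 and 1.66 without the cells of highest doublet score. Rps29, Rps2 and Rpsa were also among the 5 highest in KO ESCs, as were Rps2, Rpl35a, Rps18 and Rpsa in KO 48h-EpiLCs. Without the cells of highest doublet score, Rps2 and Rpsa ranked 12 and 8 in KO ESCs, Rps18 ranked 7 in KO 48h-EpiLCs and Rpsa ranked 6 in WT ESCs. In WT ESCs the 5 highest included Rps18, Rpl39l, Rpsa and Rpl13, and in WT 48h-EpiLCs Rps20, Rpl9, Rpsa and Rps18. Rps2, Rps18 and Rpl35a belong to the 9 genes picked for low ratios of KO over WT in both libraries. The cells of the other peak within the KO definition are given above, and their part in the variance of these genes was not tested.

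Ribosomal proteins that escape the symbol rule showed a mixed picture. Rps3a1, at the mRNA exit of the small subunit, was at 2457 and 3046 CPM in WT and KO ESCs and at 2678 and 3357 CPM in WT and KO 48h-EpiLCs, with ratios of 0.18 and 0.25, the latter just past the fold. Rack1, a signalling scaffold on the small subunit, had ratios of -0.16 in both libraries. Fau, which is made as a fusion with a ubiquitin-like protein, was at -0.03 and -0.22.

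Other genes of the translation machinery were set beside the members. Of 19 TOP mRNAs that encode elongation factors, initiation factors and the like, 9 were lower in KO ESCs past the fold and none higher, and 7 were lower and none higher in KO 48h-EpiLCs, with medians of -0.19 (-0.33 to -0.05) and -0.20 (-0.29 to -0.08). These are 47.4% and 36.8% of the list, beside 24.8% and 20.5% of all genes. Without centring, 3 and 2 were lower (15.8% and 10.5%), close to or under the background of 16% and 15.4%. Eif4a2, a helicase of the initiation machinery, had the lowest ratios at -0.59 and -0.43, and Eif4b, its cofactor, the highest at 0.25 and 0.19. Between the stages their medians were 0.13 in WT and 0.11 in KO cells, led by Eif3m at 0.64 and 0.58. These medians were close to those of the members in all 4 comparisons.

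Of 20 genes of ribosome biogenesis, 1 was lower and 6 were higher in KO ESCs, and 2 were lower and 6 higher in KO 48h-EpiLCs, with medians of 0.11 (-0.08 to 0.26) and 0.06 (-0.06 to 0.29). The 30% that were higher in each library compare with 25.3% and 20.9% of all genes. Nop2, an rRNA methyltransferase, was at 0.47 and 0.32 and Nop58, a core box C/D protein, at 0.43 and 0.43, while Ncl, the nucleolar protein nucleolin, was at -0.27 and -0.14. Between the stages 8 were lower and 1 was higher in each line, with medians of -0.24 (-0.34 to -0.07) in WT and -0.21 (-0.31 to -0.14) in KO cells, where 29.1% and 26.9% of all genes were lower. Nolc1 and Ubtf, which serve snoRNP assembly and rRNA transcription, were lowest in WT cells at -0.74 and -0.67, and Ebna1bp2 highest at 0.39. Between the stages these medians had the sign opposite to that of the ribosomal protein genes, while between the lines their intervals spanned 0.

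The 78 mitochondrial ribosomal protein genes had medians of -0.06 in ESCs and 0.03 in 48h-EpiLCs for KO over WT. Past the fold, 14 were lower and 8 higher in KO ESCs (17.9% and 10.3%), beside 24.8% and 25.3% of all genes. In KO 48h-EpiLCs 8 were lower and 12 higher (10.3% and 15.4%), beside 20.5% and 20.9% of all genes. Mrps10 was lowest in both, at -0.78 and -0.70. Between the stages their medians were 0.06 in WT and 0.13 in KO cells. Of 8 regulators, 1 was lower and 1 higher past the fold in KO cells of each library (12.5% each way), also under the shares of all genes. Mycn, a transcription factor that drives growth genes, was at 133 CPM in WT and 77.1 CPM in KO ESCs, and at 52.9 CPM in WT and 60.3 CPM in KO 48h-EpiLCs. Mtor, the kinase that governs TOP mRNA translation, was between 31.5 and 46.1 CPM, and its effector Larp1 between 150 and 194 CPM.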

How the data were processed

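The deposited files held UMI counts (genes by barcodes), made by the authors with Cell Ranger (3.0.2) on mm10 plus the tdTomato coding sequence. The submitters' processing notes also name Seurat (4). Strand use is not given in the sources used here. Kept cells had 1000 genes or more and no more than 10% mitochondrial UMIs. Doublets stayed in, as did cells with markers of other types; as alternatives, the top 10% of doublet scores (simulated doublets, 2000 variable genes, 30 components, a reimplementation) or cells with at least 3 such markers were left out. UMIs were summed per class and scaled to 1000000 per class, with exact Poisson or binomial intervals (Clopper-Pearson) and order-statistic intervals for medians. The UMI totals in the report set this precision. No test was possible. Genes named were the 5 highest and lowest ratios between lines, the 4 between stages, the 5 highest levels, X-linked members, paralogue pairs and the 5 highest Fano factors per class, and the extremes of each list. Some genes that this rule named are not reported here. Rps4l, the planned partner of Rps4x, was not used here. Members and lists were chosen with earlier results of these data known. Gene models were from GENCODE M21, found for 99.8% of features. The ratio step recovered known changes in simulated data. Tools were Python 3.11.15, numpy 2.4.6, scipy 1.17.1, pandas 2.3.3, scikit-learn 1.9.0 and matplotlib 3.10.9.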

Additional observations from a re-analysis of the deposited data

Results flagged for a closer look

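For 7 members the ratio had opposite signs in the 2 lines or in the 2 libraries, with counting intervals that excluded 0 on both sides. The differences themselves were not tested, since each class was 1 sample. The share of all genes that meet this rule was not computed, and members hold many UMIs, so their counting intervals are narrow. Small ratios also depend on the centring, which subtracted 0.028 between the stages in WT cells and -0.021 in KO cells. Between the lines it subtracted 0.125 in ESCs and 0.074 in 48h-EpiLCs. Between the stages, Rps19 was at 0.107 in WT and -0.033 in KO cells, and Rps15a at 0.160 and -0.038. Rpl29, the lowest member between the lines, was at -0.090 in WT and 0.124 in KO cells. Rpsa was at -0.034 and 0.181, and Rps2 at -0.138 and 0.109. Between the lines, Rps15 was at 0.158 in ESCs and -0.109 in 48h-EpiLCs, and Rps14 at 0.067 and -0.097. All are centred log2 ratios.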

How the results depend on the processing

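Of 132 recomputed values, 105 stayed within the interval of the main value or within 1.5 times of the main count, 27 moved and none reversed. Cells with 10000 to 20000 UMIs alone gave, for KO over WT 48h-EpiLCs, a share difference of -3.25 points, a median ratio of -0.24 and 38 members lower, and for KO cells between stages 0.706 points, 0.063 and 11 members higher. A WT definition without tdTomato among cells with at least 20000 UMIs gave -1.52 and -2.07 points between the lines in ESCs and 48h-EpiLCs, 1.10 and 0.555 points between stages in WT and KO cells, 14 and 11 members lower in KO ESCs and 48h-EpiLCs, a median of -0.10 in the latter and 11 members higher between stages in WT cells. For these choices of cells the share of all genes past the fold was not computed, so their counts of members have no background. Without centring, the medians of KO over WT were -0.070 and -0.081 with 14 and 12 members lower. Without a filter on low values they were -0.14 and -0.13. At a fold of 0.5, 10 and 9 members were lower in KO cells (12.3% and 11.1%, beside 10.2% and 7.67% of all genes) and 0 were higher between stages in either line. Without the 9 members, chosen after seeing the data, the share differences were -0.982 and -1.66 points and 11 members were lower in KO 48h-EpiLCs. Leaving out cells of highest doublet score or with markers of other cell types moved no value out of its interval. No paired analysis was possible because each stage was 1 library and the labels give no replicate numbers. Depth limited Rpl3l, Rpl10l and Rps27rt most.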
